A study of Oryza sativa with 8 samples.

Results

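Of 59903 rows in a gene count table from rice seedlings, 150 were low in drought and were still low after rewatering. A row was included when its mean under normal watering was at least 5 CPM (counts scaled to a library total of 1000000) and its means in drought and in recovery were each at or below 50% of that normal mean. Of the 14199 rows that reached the minimum, 3395 met the drought limit and 393 the recovery limit. The 150 rows that met both were 1.06% of the 14199, 4.42% of the drought-lowered rows and 38.2% of those low in recovery. The members were thus chosen by their wild type CPM in all 3 conditions, and their values against normal are given below as a description, without a test. Recovery was also compared with drought, row by row, in a fit over the whole table. That comparison draws on the same libraries as the selection, so its counts over the members are a description too.

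All groups used here were wild type seedlings of the MH63 variety, grown in soil for 14 days with ample water and sampled as whole seedlings. Recovery plants went 15 days without watering, with relative soil water held near 5% in the last days, and were then rewatered for 4 days. Drought plants had the same 15 days without watering and were taken at its end. Normal plants were watered throughout and harvested along with the drought plants, so recovery plants were 4 days older than the normal plants they are set against. Recovery plants were 4 days older than the drought plants as well. Age and rewatering cannot be told apart where recovery is set against normal or against drought. As whole seedlings were sampled, the groups are separate plants, and words such as rise, fall and return compare groups. Each group had 2 libraries, described as biological replicates of at least 30 seedlings each. The p-values set each difference between groups against the spread between these libraries, which is estimated in part across rows. In RNA from whole seedlings, fewer cells of a type and less RNA per cell cannot be told apart.

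Plants short of water close their stomata, slow photosynthesis and cell growth, and lower the transcripts of many genes that serve growth, while the hormone abscisic acid raises transcripts that protect against water loss. On rewatering, most such transcripts are known to move back toward their former levels, at speeds that differ between genes. Which of these processes the 150 rows belong to could not be read from the table. The table gives each row an ID without a gene name, and 0 of these IDs occur in the reference table of 39387 rice genes, which comes from another assembly. An ID below is a row label and not evidence of which gene was measured. No pathway list and no tissue marker could be looked up for the same reason, so the seedling label was not checked against markers.

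The wild type libraries held 37400784 to 42894245 counts. Across the 14199 rows, r between wild type replicates was 0.995 to 0.996 on log2(CPM + 1), and 0.662 or more between any wild type libraries. The osbzip23 drought libraries correlated with each other at 0.987 and with the wild type libraries at 0.0031 to 0.0079. Rows of osbzip23 and wild type thus showed no correspondence, the level of the disrupted gene could not be looked up, and the osbzip23 libraries are not used below except in 1 alternative fit.

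Together the 150 rows took a small part of each library. They held 0.253% ± 0.0037 of all counts in recovery, 0.113% ± 0.00008 in drought and 0.756% ± 0.0023 under normal watering (SD, n = 2 each). The fall against normal follows from the selection. The order of recovery and drought is shaped by it as well, because low values were common and deep in drought and rare and shallow in recovery over the whole table. A few rows carried most of these counts. The 10 rows with the most counts under normal watering made up 51.0% of the members' counts in recovery, 57.0% in drought and 52.8% in normal plants.

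Most members held modest counts under normal watering. The median mean was 5.12 CPM in recovery, 1.67 CPM in drought and 14.2 CPM under normal watering, with highest values of 264.1, 165 and 1160 CPM. Summed over both libraries of a group, the median member had 396 counts in recovery, 141.5 in drought and 1122.5 in normal plants. The level was more even in recovery than in drought. As a percentage of normal, the middle 50% of members lay from 29.3% to 44.0% in recovery, with a median of 37.2%, and from 3.73% to 26.9% in drought, with a median of 11.5%. Over all 14199 rows the median was 86.7% of normal in recovery and 92.4% in drought, so part of the distance to normal in recovery is common to most rows on this scale.

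**Figure D1:**
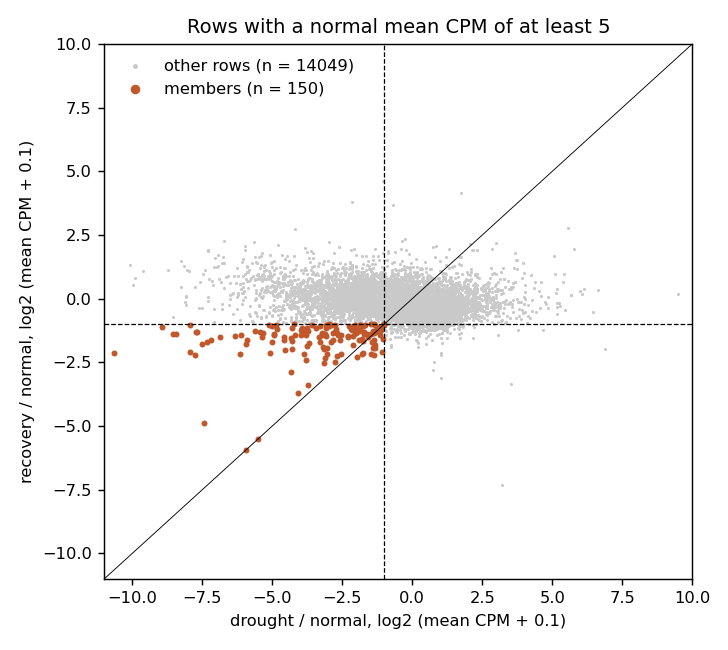
Each point is a row with a normal mean of at least 5 CPM, placed by its drought to normal ratio (x axis) and its recovery to normal ratio (y axis), both as log2 of mean CPM + 0.1, with dashed lines near the 2-fold limits and a solid line where recovery equals drought. The 150 members fill the lower left corner, and most of them lie above the solid line, spread wide along the drought axis and narrowly along the recovery axis.

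The drought fall was steep in many members. It was 8-fold or more in 78 of them, 4- to 8-fold in 29 and 2- to 4-fold in 43. After rewatering the distribution was shallower, with 5 members 8-fold or more below normal, 22 between 4- and 8-fold and 123 between 2- and 4-fold. Of the 78 members with the steepest drought falls, 60 had come back to within 2- to 4-fold of normal, 13 to within 4- to 8-fold, and 5 were still 8-fold or more below. Among these 5 was a row with 499 counts in normal replicate 1 and 0 counts in every other wild type library. The others of the 5 had normal means of 5.38, 5.84, 17.3 and 78.6 CPM. No member with a shallower drought fall was 8-fold or more below normal in recovery.

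**Figure D2:**
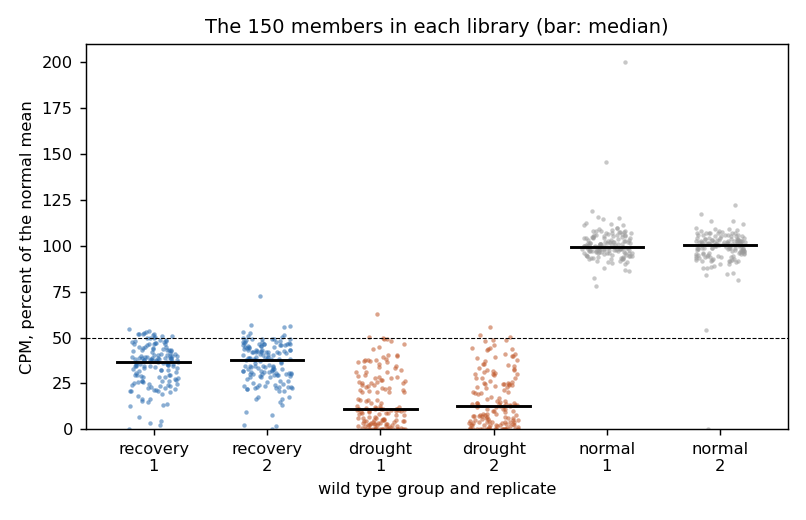
The CPM of each of the 150 members in each wild type library (x axis: group and replicate) as a percentage of its normal mean (y axis), with a bar at the median and a dashed line at 50%. Both recovery libraries show a compact band around 37%, both drought libraries a wider spread that reaches 0, and 1 point at 200% in normal replicate 1 belongs to a row without a count in normal replicate 2.

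The 2 members with the most counts under normal watering had different courses. OsMH_07G0101700 had 260.3 and 267.9 CPM in recovery, 0.528 and 0.699 CPM in drought, and 1134 and 1187 CPM under normal watering. It was close to silent in drought, at 22 and 30 counts, and returned to 22.8% of normal. OsMH_04G0478800 had 210.6 and 218.9 CPM in recovery, 54.4 and 60.1 CPM in drought, and 536 and 545.7 CPM under normal watering. It kept 10.6% of its normal level in drought and reached 39.7% in recovery. In both, the 3 groups did not overlap.

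The next 2 members by normal counts, singled out after their values were seen, rose little on rewatering. The third had 196 and 200.1 CPM in recovery, 161.6 and 157.4 CPM in drought, and 527.9 and 515.9 CPM under normal watering. The one after it had 180.1 and 177.5 CPM in recovery, 171 and 158.9 CPM in drought, and 470.4 and 456.9 CPM under normal watering. Their log2 fold changes of recovery over drought were 0.43 ± 0.04 and 0.23 ± 0.05 (SE, called higher in the edgeR fit described below). With library size scaling alone the values were 0.31 ± 0.04 and 0.12 ± 0.05 (SE, edgeR adjusted p = 2.85e-05 and 0.0435). Of the gap that drought had opened, they had closed 10.6% and 4.65%, while the gap closed was 22.7% in OsMH_07G0101700 and 32.6% in OsMH_04G0478800. In all, 16 members had a normal mean of 100 CPM or more. In the edgeR fit all 16 were called higher in recovery than in drought, where 38.2% of all tested rows were, and with library size scaling alone 14 were. In 1 of the 2 others the libraries overlapped, with 97.7 and 97.2 CPM in recovery and 95.2 and 98.8 CPM in drought (OsMH_11G0023900, named after its values were seen, log2 fold change 0.12 ± 0.05 with TMM and 0.0070 ± 0.050 without). Of the 16, 9 were 8-fold or more below normal in drought, and 4 were at 25% of normal or less in recovery.

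Among members with a normal mean of at least 20 CPM, 57 in number, OsMH_07G0473900 was lowest after rewatering relative to normal. It had 1.84 and 1.41 CPM in recovery, 1.97 and 1.31 CPM in drought, and 76.5 and 80.7 CPM under normal watering. Its recovery mean was 48.5-fold and its drought mean 48.1-fold below normal, and the recovery and drought libraries overlapped. The fitted log2 fold change of recovery over drought was 0.10 ± 0.21 (SE), with an adjusted p of 0.671 in edgeR's quasi-likelihood test. Next came OsMH_10G0105100, with 33.3 and 32.8 CPM in recovery, 12.3 and 11.9 CPM in drought, and 241 and 248.9 CPM under normal watering. It was 7.41-fold below normal in recovery and 20.2-fold below in drought, with groups that did not overlap.

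Nearly all members were also below normal by library and by the fit over the whole table, which the selection makes likely. Every recovery library lay below every normal library in 149 of the 150 members, and so did every drought library. Over all 22898 rows tested, 51% had recovery libraries below normal ones and 46.2% drought libraries below normal ones. In the edgeR fit, 148 of 149 tested members were called lower in recovery than in normal plants (16.7% of all tested rows were), and 149 were called lower in drought than in normal plants (37.3% of all tested rows). Nothing is read from these counts, because the same contrasts chose the members. The median fitted log2 fold change was -1.23 in recovery and -3.03 in drought, both over normal, against 0 and -0.0035 over all tested rows. Both of these comparisons share the normal libraries.

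The untested member, singled out after its values were seen, rested on a single library. It had 499 counts in normal replicate 1 and 0 in normal replicate 2, and 0 in every drought and recovery library, so it has no counts left without normal replicate 1. In another member the normal libraries stood at 61.2 and 22.8 CPM, while its recovery libraries held 15.8 and 16.5 CPM and its drought libraries 0 counts and 1 count. These and 1 further member were the only ones with normal libraries more than 1.5-fold apart on CPM + 0.1. The difference between replicates was taken over rows with a count in both libraries. This left 149 members in recovery, 139 in drought and 149 under normal watering. Its median among the members was 0.20 log2 units in recovery, 0.26 in drought and 0.11 under normal watering. Among the 14199 rows it was 0.08, 0.10 and 0.08. The members also had fewer counts, with a median drought sum of 141.5 against 2332 over the 14199 rows.

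Rows just inside and just outside each limit were close on the measure that the limit uses, but not always in level. At the normal minimum, the nearest member had 2.01 CPM in recovery, 0.532 CPM in drought and 5.38 CPM under normal watering, and the nearest row outside had 2.07, 0.227 and 4.96 CPM. At the recovery limit, the nearest member stood at 49.5% of normal in recovery and the nearest drought-lowered row outside at 50.3%. At the drought limit, the nearest member stood at 49.3% of normal in drought and the nearest row outside at 50.1%. The same row was the nearest member at both of these limits, with a normal mean of 196.8 CPM. The nearest rows outside had normal means of 14.3 CPM at the recovery limit and 5.55 CPM at the drought limit. The recovery limit cut through a well filled range, with 32 members from 45% to 50% of normal and 52 drought-lowered rows between 50% and 55%. At the drought limit there were 7 members in the first band and 6 rows in the second.

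Recovery against drought shows how far the members stood from their drought level in plants that were rewatered and 4 days older. The limits set recovery and drought each against normal and do not fix their order, but they do shape it. Over all 14199 rows the lower quartile was 74.8% of normal in recovery and 51.9% in drought, so rows under both limits tend to lie close to the recovery limit and further below the drought limit. The shares over all tested rows given below are therefore not what the members would show without a change, and nothing is read from the difference. Of the 149 tested members, 116 were called higher in recovery than in drought, 6 were called lower and 27 were not called (edgeR quasi-likelihood test, Benjamini-Hochberg adjusted over 22898 rows). Over all tested rows, 38.2% were called higher and 37.3% lower in recovery. The median fitted log2 fold change of recovery over drought was 1.48 among the members and -0.01 over all tested rows. Requiring an absolute log2 fold change of at least 1 as well left 90 members higher, where 25.9% of all tested rows were, and 0 lower, where 19.9% were. The smallest log2 fold change of a member was -0.95, and 7 members were lower at an unadjusted p under 0.05. Without the limit on size, DESeq2 called 3 members lower and limma-voom 5.

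**Figure D3:**
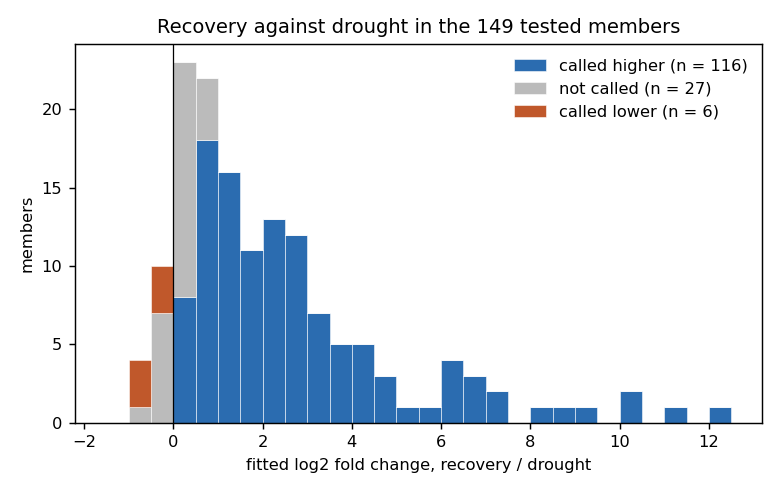
Histogram of the fitted log2 fold change of recovery over drought (x axis) in the 149 tested members, stacked by call at an adjusted p under 0.05 (edgeR quasi-likelihood test). The 116 members called higher reach 12.0, while the 6 called lower lie between -0.95 and -0.24. The value of 12.0 is from OsMH_04G0382500, with 0 counts in both drought libraries, so its size depends on the method (DESeq2 11.6, limma-voom 10.1).

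The order of the libraries gave like counts. Recovery libraries lay above both drought libraries in 116 members, where 40.5% of all tested rows did, and below both in 12 members, where 47.7% did. By their means, 129 members were higher in recovery than in drought, 20 were lower and 1 was at 0 in both. Without any scaling beyond library size, where the median of all tested rows was -0.12 in place of -0.01, the counts were 111 higher and 7 lower.

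The calls were spread unevenly over the depth of the drought fall. Of the 78 members with falls of 8-fold or more, 74 were called higher in recovery, 0 lower and 3 not called, and 1 was not tested. Of the 29 with falls of 4- to 8-fold, 27 were called higher and 2 not called. Of the 43 with falls of 2- to 4-fold, 15 were called higher, 6 lower and 22 not called. The recovery limit left a row just under the drought limit little room to be higher. As a percentage of normal, a row far below normal in drought had little room to be lower still. On the log2 scale of the calls it could be lower unless its counts were near 0. The order of these classes is thus shaped in part by the rule, which also bounds the share of the drought gap that a member could close. The median share of the drought gap closed after rewatering was 32.5% in the first class, 24.6% in the second and 2.63% in the third.

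The 2 steepest rises by the fitted value, among called members with a normal mean of at least 20 CPM, belonged to rows with no drought count at all. OsMH_04G0382500 had 12.3 and 11.5 CPM in recovery, 0 counts in both drought libraries, and 24.0 and 24.6 CPM under normal watering. Its recovery level was at least 335.4-fold above drought, against a floor of 3 counts over both drought libraries (edgeR adjusted p = 5.18e-11). OsMH_01G0404600 had 7.64 and 8.59 CPM in recovery, 0 counts in both drought libraries, and 19.9 and 20.7 CPM under normal watering. Its recovery level was at least 228.8-fold above drought (edgeR adjusted p = 2.12e-10). They came back to 49.0% and 39.9% of normal. In all, 5 members had 0 drought counts, among them the row that rested on a single library, and 3 more had 1 to 3. The floors cover counting error only.

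The 6 members called lower in recovery than in drought stood further below normal in recovery plants than in drought plants. Since the groups are separate plants, a continued fall was not observed. All 6 had drought levels between 29.1% and 46.7% of normal and recovery levels between 21.6% and 28.1%, and in all 6 the recovery libraries lay below both drought libraries. The largest of these falls, -0.95 on the log2 scale, was in a row with a normal mean of 6.69 CPM. Among those with a normal mean of at least 20 CPM, OsMH_09G0295500 had 5.67 and 5.98 CPM in recovery, 8.61 and 9.28 CPM in drought, and 22.5 and 22.9 CPM under normal watering. Its log2 fold change of recovery over drought was -0.51 ± 0.12 (SE, edgeR adjusted p = 0.00208). OsMH_07G0090400 had 9.67 and 8.82 CPM in recovery, 11.7 and 11.9 CPM in drought, and 39.2 and 41.9 CPM under normal watering. Its log2 fold change was -0.24 ± 0.10 (SE, edgeR adjusted p = 0.0492), and in 13 of 15 other fits it was not called, with adjusted p from 0.00664 to 0.280 over the 15. Of the 6, 3 were called lower in every fit that left out 1 library.

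The 27 members that were not called had fitted log2 fold changes from -0.73 to 0.63, of which 19 were above 0 and 8 below. Their median drought level was 37.5% and their median recovery level 34.9% of normal. Standard errors in this class ran from 0.08 to 0.44 log2 units, so a change of the size seen in the 6 members above could have been missed in some of them.

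**Figure D4:**
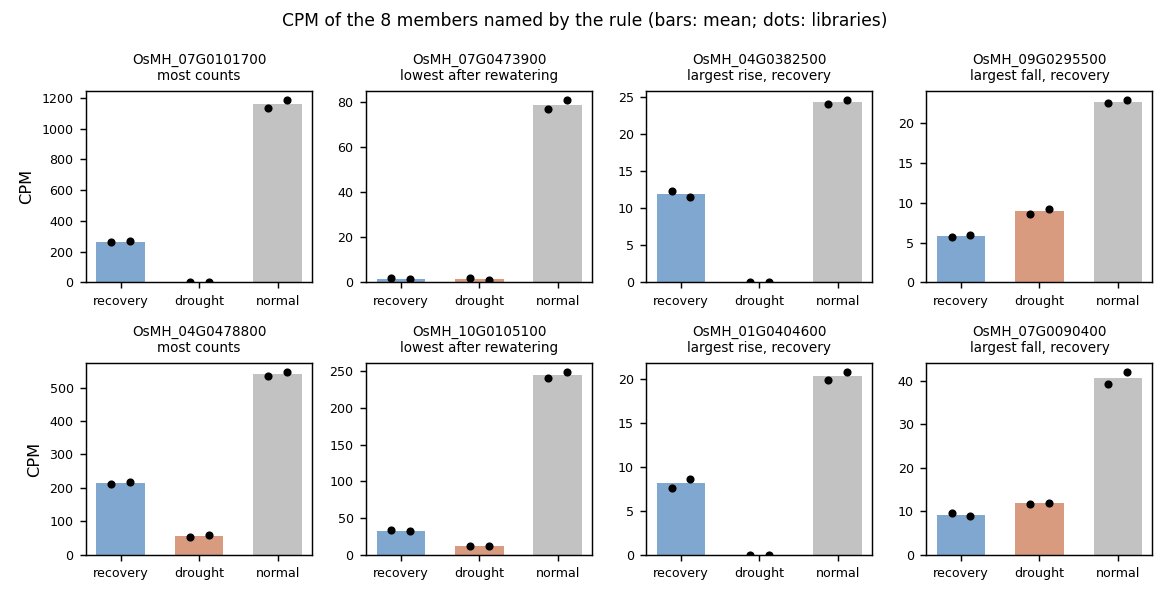
CPM (y axis, its own scale in each panel) of the 8 members named by the rule, in recovery, drought and normal plants, with bars for the mean and dots for the 2 libraries. From left to right, the columns show the members with the most normal counts, those lowest in recovery relative to normal, those with the largest called rise and those with the largest called fall of recovery against drought. All columns but the first cover members with a normal mean of at least 20 CPM only, and lower-count members with larger called falls are not drawn.

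Set beside the 3245 drought-lowered rows that stood above 50% of normal after rewatering, the members had lower drought levels relative to normal. The median drought level was 11.5% of normal in the members and 26.7% in the 3245 rows. The median normal mean was 14.2 CPM in the members and 30.1 CPM in the 3245 rows. In the same way, members made up 9.17% of the 851 rows that fell 8-fold or more in drought, 3.92% of the 740 that fell 4- to 8-fold and 2.38% of the 1804 that fell 2- to 4-fold. The median of all rows in these drought classes ran the other way, at 111.4%, 103.5% and 96.1% of normal in recovery. Members were 6.86% of drought-lowered rows with a normal mean of 5 to 10 CPM, 6.58% from 10 to 20 CPM, 3.17% from 20 to 100 CPM and 2.23% from 100 CPM up. CPM is not divided by gene length, so these classes compare counts and not transcript levels, and these differences between sets of rows were not tested. The drought and recovery percentages share their normal libraries, so a high normal value lowers both. The rule used the same values, so the deeper drought fall is not read as a trait of the members.

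**Figure D5:**
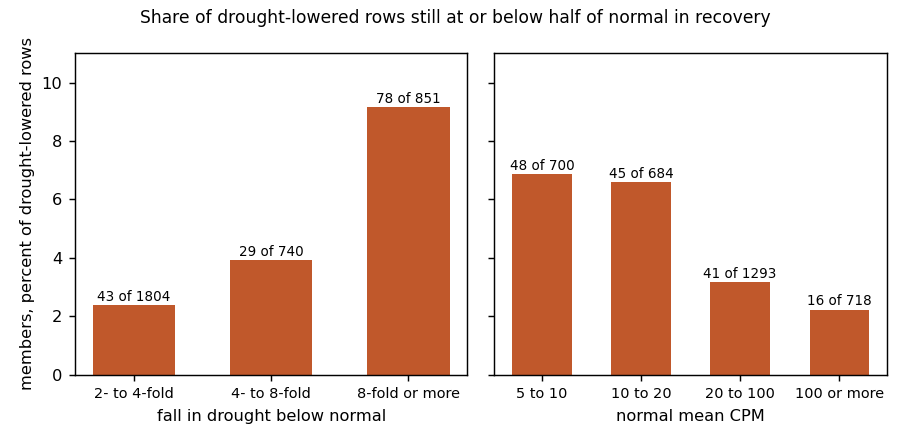
Members as a percentage of all drought-lowered rows (y axis) by the size of the drought fall (left) and by normal mean CPM (right), with the number of members and of drought-lowered rows above each bar. The share is highest, at 9.17%, among rows that fell 8-fold or more, and lowest among rows with many normal counts on the right.

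The 243 rows that were low in recovery only had a median drought level of 152.4% of normal, and their recovery median of 45.5% of normal was closer to the limit than the 37.2% of the members. Their median normal mean was 15.4 CPM, against 14.2 CPM in the members. In these rows and in the 3245 drought-lowered ones the direction of recovery over drought is fixed by the limits, while in the 150 members it is shaped by them without being fixed.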

How the data were processed

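The deposited values were raw counts per row, in a column for each sample, per the file headers, and the authors had applied no scaling. STAR 2.7.10a, StringTie 2.1.7 and fastp 0.23.0 are listed without roles, per the submitters' processing notes. The build, annotation, strand setting and treatment of reads shared by gene copies are not given in the sources used here, so rows of near-identical or overlapping genes are uncertain. Members were found on CPM by column total. Counts of the 6 wild type libraries entered 1 fit in edgeR 4.0.16 (R 4.3.3) with TMM, the filterByExpr filter and the quasi-likelihood F-test, two-sided. The p-values were Benjamini-Hochberg adjusted over 22898 rows and called under 0.05. SE is the log2 fold change divided by the root of F. Each group had 37400784 to 42894245 counts per library; the number of libraries and, for members with few drought counts, depth both limit the precision. The procedure was tested on simulated counts, with changes placed only in well counted rows. These changes were larger than those of the members called lower in recovery than in drought. The simulation thus does not cover such falls or rows with few drought counts.

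The members, rules and tests were chosen with earlier results of these data known. Named rows were, among members, the 2 with the highest normal mean, the 2 lowest in recovery relative to normal, and the 2 largest called rises and falls of recovery over drought without overlap, the last 3 kinds with a normal mean of at least 20 CPM. Alternatives were DESeq2 1.42.0, limma-voom (limma 3.58.1), other size factors, filters, limits and pseudocounts, the 4 libraries compared, all 8 libraries, a replicate block and each library left out. Tables and figures used Python 3.11.15, NumPy 2.4.6, pandas 2.3.3 and matplotlib 3.10.9.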

Additional observations from a re-analysis of the deposited data

How the results depend on the processing

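The 150 members depended on the limits and the scaling. A normal minimum of 1 or 20 CPM gave 319 or 57 rows, and a fall of at least 1.5-fold or 3-fold gave 528 or 45. With TMM or median-of-ratios sizes 112 or 110 rows met the rule, all among the 150, and the 112 held 84 members called higher and 6 called lower in recovery than in drought, an alternative chosen after seeing the data. Column totals, used by the rule, put the median log2 fold change of recovery over normal at -0.19 over all tested rows, which TMM puts at 0. Leaving out 1 library gave 151 to 160 rows, and 116 of the 150 met the rule in all 6 such cases. Members called higher in recovery than in drought numbered 113 to 117 without 1 library and 107 with all 8 libraries. Members called lower, 6 in the report, numbered 4 to 6 without 1 library, 3 with DESeq2, 3 in the fit of the 4 libraries compared, 1 with all 8 libraries and 0 where an absolute log2 fold change of 1 was also asked for. The cause was not tested, except that the common dispersion was 0.0214 with all 8 libraries and 0.00555 in the 6 wild type ones. The fit of all 8 libraries includes the osbzip23 ones, which held 14653876 and 17009931 counts. Their rows showed no correspondence with the wild type rows, so its spread is estimated in part over rows that do not match. OsMH_09G0295500 was not called with all 8 libraries (edgeR adjusted p = 0.0877, with a range of 0.000462 to 0.0877 over 15 fits).

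The median log2 ratio of recovery to drought over the members, 1.28 with a pseudocount of 0.1 CPM, was 0.90 with a pseudocount of 1 and 1.73 among members of at least 20 CPM, and ran from 1.18 to 1.46 without 1 library. With rows at 0 drought counts set to the floor of 3 counts it was 1.36. The members' share of counts was 0.271% in recovery, 0.112% in drought and 0.710% in normal plants with TMM sizes, and 0.218%, 0.0952% and 0.658% for members of at least 20 CPM. With the replicate number as a replicate block, 115 members were called higher and 6 lower. Deviations of same-numbered libraries correlated at -0.033 to 0.064 across rows, so the numbers are not taken to pair the libraries.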

Other observations

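The members were spread along the table. In 9 windows of 5000 rows, they made up 2.16% to 6.94% of the drought-lowered rows, with the highest share in the window from row 40001, which held 5 members among 72 such rows. A further 2 members stood after row 45000. In 3 places 2 members stood on adjacent rows, and 503 pairs of adjacent rows were found among all drought-lowered rows. In the first pair the means were 4.91 and 2.05 CPM in recovery, 0.654 and 0.249 CPM in drought, and 13.5 and 6.71 CPM under normal watering. In the second pair they were 3.15 and 3.72 CPM in recovery, 3.82 and 5.51 CPM in drought, and 10.5 and 14.7 CPM under normal watering. In the third pair they were 3.10 and 32.7 CPM in recovery, 0.0240 and 0.0473 CPM in drought, and 8.54 and 71.5 CPM under normal watering. In each pair both rows had the same order of groups. Whether adjacent rows are neighbouring genes was not tested, since an ID is only a row label.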
